A study of Homo sapiens with 12 samples.

Results

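The respiratory chain genes of the nucleus were described in the human myeloma line OPM-1 after treatment with lenalidomide, a RUNX inhibitor or both. The genes were chosen by name: symbols that start with NDUFA, NDUFB, NDUFC, NDUFS, NDUFV, UQCR, COX4I, COX5, COX6, COX7, COX8 or ATP5, together with SDHA, SDHB, SDHC, SDHD and CYC1, without antisense or pseudogene symbols and with a mean of at least 0.5 RPKM (reads per kilobase of gene length, scaled to the reads of the sample on genes) over the 12 samples. Of the 38478 genes in the table, 103 had such a name, 6 of these were left out as antisense or pseudogene symbols, 10 lay under the minimum level, and 87 remained among the 11241 genes tested. By role they are 7 core and 28 accessory subunit genes of complex I, 7 complex I assembly factors (NDUFAF genes, which the name rule takes in), 4 genes of complex II, 10 of complex III, 13 of complex IV and 16 of complex V, plus ATP5S and ATP5SL, which carry the ATP5 name but do not encode subunits of the complex. The symbols are those of the table, in which the complex V genes keep their older ATP5 names.

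Cells were kept for 48 h with the solvent DMSO, with 0.1 μM lenalidomide (LEN), a drug that turns the ubiquitin ligase cereblon against the transcription factors IKZF1 and IKZF3, with 1 μM AI-10-104, a small molecule that keeps RUNX transcription factors from their partner CBFβ, or with both (LEN+AI-10-104). Poly(A) RNA was sequenced from 3 biological replicates of each of the 4 conditions, and the design asks how RUNX inhibition changes the transcriptional response to lenalidomide. All samples come from 1 cell line grown in culture, and no other line or primary cell was measured. Each sample had between 16352548 and 31386210 reads on genes, and LEN+AI-10-104 had the fewest (16352548 to 20419807). All 7 plasma cell markers examined were present, from 22.9 RPKM for SLAMF7 to 523 RPKM for XBP1, while none of the markers of B, T, myeloid and epithelial cells and fibroblasts reached 0.5 RPKM. Of the erythroid and endothelial markers, HBB had a mean of 19.8 RPKM (18.2 to 22.9 RPKM over the samples) and PECAM1 of 1.22 RPKM.

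Oxidative phosphorylation runs on 5 complexes of the inner mitochondrial membrane. Complexes I to IV pass electrons from NADH and succinate to oxygen, complexes I, III and IV pump protons as they do so, and complex V, the ATP synthase, lets the protons back to make ATP. A small set of subunits is encoded by mitochondrial DNA, whereas the genes described here are transcribed in the nucleus and their proteins imported, and many of them are classical targets of the transcription factors NRF1 (nuclear respiratory factor 1), GABPA and YY1. Plasma cells carry a high load of protein synthesis and secretion, which draws on ATP.

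RefSeq (GRCh38.p14) gave a promoter window, 250 bases before to 50 bases after the transcription start, for 68 of the 87 genes. The NRF1 motif GCGCATGC, searched on both strands as were the other motifs, was in 14 of the 68 windows (20.6%) and in 3.27% of all 27305 windows. GABPA's CCGGAAG was in 20 (29.4%, against 10.7% of all), and YY1's AAGATGGCG was in 7 (10.3%, against 1.85%). The RUNX motif TGTGGT was in 11 (16.2%, against 13.1%), among them the windows of SDHA, COX8A, NDUFV1 and ATP5A1. The bases before the start are shown for the called genes that had a window, COX6A1 and NDUFS6. Both were called higher with LEN+AI-10-104 than with AI-10-104, and both windows hold the NRF1 motif. No window was available for ATP5D, the other gene called with every sample kept. The first line is the plus strand of chr12:120437863-120438112 (60.0% GC), 5′ to 3′, with NRF1 motifs in capitals near its start and a GABPA motif in capitals at its end, and the second is the plus strand of chr5:1801157-1801406 (58.8% GC), with 1 NRF1 motif in capitals.
COX6A1: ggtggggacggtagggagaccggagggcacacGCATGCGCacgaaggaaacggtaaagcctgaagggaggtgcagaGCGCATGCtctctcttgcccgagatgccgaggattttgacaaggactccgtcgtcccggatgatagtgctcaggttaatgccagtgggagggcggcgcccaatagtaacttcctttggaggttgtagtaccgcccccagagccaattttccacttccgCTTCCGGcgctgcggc
NDUFS6: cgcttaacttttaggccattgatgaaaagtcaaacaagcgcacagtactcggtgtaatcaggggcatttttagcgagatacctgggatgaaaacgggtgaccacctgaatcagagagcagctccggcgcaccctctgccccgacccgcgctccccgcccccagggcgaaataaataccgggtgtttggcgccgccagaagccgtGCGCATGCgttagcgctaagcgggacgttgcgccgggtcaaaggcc
GENCODE v44 places the start of COX6A1 at 120438090, inside the printed window, and that of NDUFS6 at 1801407, right after it. A motif match describes these letters only, and factor binding was not measured. In the median the 250 bases held 60.6% GC over the 68 genes and 58.0% over all windows.

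The 87 genes were among the more abundant mRNAs of these cells. Their median level was 90.1 RPKM against 8.59 RPKM over all genes tested, 92.0% of them lay above that overall median, and 36 of the 562 genes in the top 5% by level were among them. They took 1.36% to 1.47% of all reads on genes in each sample. They are short genes, with a median length of 1224 bases in the table against 3715 bases, and their median GC content of 45.9% was near the 46.9% of all genes tested. GC content here is that of the longest GENCODE v44 transcript, which can differ from the gene as counted. That transcript has 4555 bases for NDUFB9 and 3001 for SDHA, where the table gives 719 and 6125. Levels spanned 0.526 RPKM for ATP5L2, counted on 4 to 21 reads per sample, to 814 RPKM for ATP5B. They varied little over the 12 samples, with a median coefficient of variation of 5.74% against 6.94% over all genes.

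**Figure D1:**
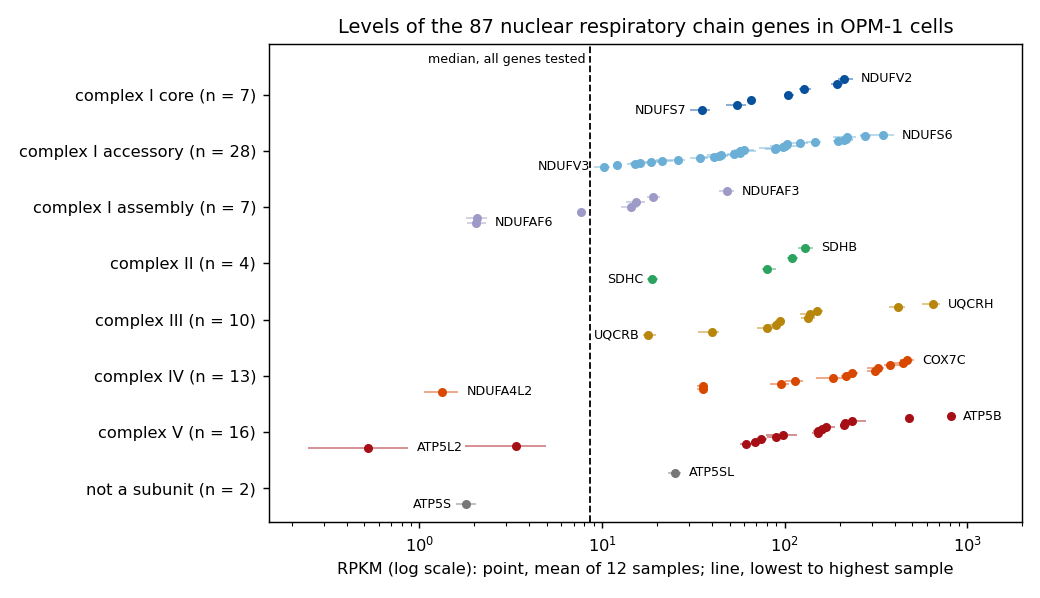
Mean RPKM over 12 samples (points, log scale) and lowest to highest sample (lines) of the 87 genes by role, with the lowest and highest gene of each role named; the dashed line is the median of all genes tested, 8.59 RPKM. Most genes lie between 10 and 500 RPKM, and ATP5L2, ATP5E, NDUFA4L2, ATP5S and 3 assembly factors (NDUFAF5, NDUFAF6 and NDUFAF7) fall below the dashed line.

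Within complex I, the entry point of electrons from NADH, the core subunits ranged from 35.4 RPKM for NDUFS7, an iron-sulfur protein near the quinone site, to 211 RPKM for NDUFV2, an iron-sulfur protein of the NADH-oxidizing module. Accessory subunits, which surround and stabilize the core, ranged from 10.3 RPKM for NDUFV3 to 347 RPKM for NDUFS6, a zinc-binding subunit. The assembly factors, which do not stay in the finished complex, were lower, from 2.05 RPKM for NDUFAF6 to 48.6 RPKM for NDUFAF3. NDUFA3 and NDUFA6, also accessory subunits, are listed at 0 in all samples. The table gives them lengths of 3957 and 4736 bases, where their longest GENCODE v44 transcripts have 945 and 1183 bases. The part of these lengths in the values was not tested.

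Complex II, which also belongs to the citric acid cycle, had 129.6 RPKM for SDHB (iron-sulfur subunit), 110.3 RPKM for SDHA (flavoprotein), 80.4 RPKM for SDHD and 18.7 RPKM for SDHC (both membrane anchors). In complex III, levels ran from 17.8 RPKM for UQCRB to 647 RPKM for UQCRH, the hinge protein that helps cytochrome c dock, with 133 RPKM for the Rieske protein UQCRFS1 and 89.2 RPKM for cytochrome c1, CYC1. UQCRHL, a copy of UQCRH, was listed at 414 RPKM. Over 516 aligned bases the transcripts of UQCRH and UQCRHL shared 505 (97.9%), so the division of reads between them is uncertain.

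Complex IV, cytochrome c oxidase, has alternative forms of some subunits. For COX4I, COX6A, COX6B, COX7B and COX8 the broadly expressed form was present. The other form was listed at 0 or had at most 3 reads per sample. COX7A2L and NDUFA4L2, by contrast, had reads in every sample (1791 to 3408 and 41 to 96). A listed 0 does not show absence here, since NDUFA3 and NDUFA6 are also listed at 0. COX4I1 was at 325 RPKM and COX4I2 listed at 0, COX6A1 was at 184 RPKM and the heart and muscle form COX6A2 listed at 0, COX7B was at 377 RPKM and COX7B2 listed at 0, and COX8A was at 444 RPKM and COX8C listed at 0. COX6B1 was at 312 RPKM with at most 3 reads per sample on COX6B2. COX7A2 was at 114 RPKM and COX7A2L, which helps form supercomplexes, at 35.6 RPKM, with at most 3 reads per sample on COX7A1. COX7C had the highest level of the complex (464 RPKM), and NDUFA4L2 the lowest (1.34 RPKM) beside 35.6 RPKM for its paralog NDUFA4.

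In the catalytic head of complex V, the ATP synthase, the beta subunit ATP5B (814 RPKM) and the alpha subunit ATP5A1 (479 RPKM), which are present in several copies per complex, stood above the single-copy gamma subunit ATP5C1 (235 RPKM) and delta subunit ATP5D (98.3 RPKM). The epsilon subunit ATP5E was listed at 3.38 RPKM, on 18 to 68 reads per sample, beside 28.7 RPKM for its retrocopy ATP5EP2, and the 2 transcripts shared 150 of 156 aligned bases (96.2%). That split is therefore uncertain, as is that of ATP5L (169 RPKM) and ATP5L2, which shared 439 of 473 aligned bases (92.8%). The c-subunit of the rotor comes from ATP5G1, ATP5G2 and ATP5G3, which encode the same mature protein. Their levels were 212 RPKM for ATP5G1, 159.5 RPKM for ATP5G3 and 68.7 RPKM for ATP5G2, and the 12 values of each gene did not overlap those of the next.

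Expression was compared as log2(RPKM + 0.1) with limma fitted to all 12 samples and Benjamini-Hochberg adjustment over all 11241 genes. A call needed an adjusted p no higher than 0.05 together with a log2 fold change of 0.32 or more in size, and the genes past the adjusted p alone are given beside the calls. Log2 fold changes with the added 0.1 understate those of low genes. RPKM is a share of the reads of a sample, so fewer cells and less RNA per cell cannot be told apart, and a change of total RNA would not show.

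AI-10-104 replicate 2 stood apart from replicates 1 and 3 over these genes, and the calls that rest on AI-10-104 are given with and without it. Where replicate 2 lay nearest to the other conditions, leaving it out enlarges the difference, so passing without it is no independent check. Its value was the highest of the 3 AI-10-104 samples in 59 of the 87 genes (67.8%), against 37.5% of all genes tested. Relative to each gene's mean over 12 samples, the median deviation of the 87 genes on the log2 scale was -0.08 in AI-10-104 replicate 1, 0.01 in replicate 2 and -0.06 in replicate 3. In DMSO it ran from -0.01 to 0.04 and in LEN from -0.03 to -0.00. LEN+AI-10-104 had 0.01, 0.00 and, in replicate 3, 0.09. That replicate of LEN+AI-10-104 stood apart as well. It had the highest value of its condition in 69 of the 87 genes (79.3%), against 30.8% of all genes tested. Across the 1343 genes tested that are no longer than 1224 bases the median deviation was -0.07, 0.03 and -0.05 in AI-10-104 and 0.04, 0.06 and 0.09 in LEN+AI-10-104. The longer genes stayed between -0.01 and 0.02 in every sample. AI-10-104 replicates 1 and 3 were thus lowest and LEN+AI-10-104 replicate 3 highest in short genes as a whole as in the respiratory chain genes. Short genes lay higher than the respiratory chain genes in LEN replicate 2 (0.04 and -0.01). The same held in LEN+AI-10-104 replicates 1 (0.04 and 0.01) and 2 (0.06 and 0.00). The part of gene length in the differences was not tested.

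**Figure D2:**
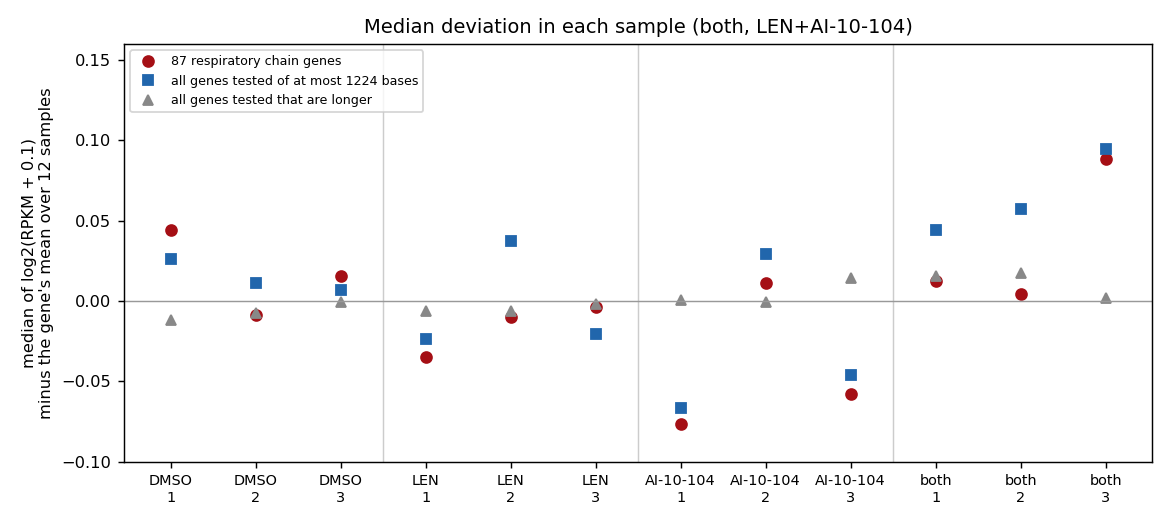
Median, in each of the 12 samples, of log2(RPKM + 0.1) minus the gene's mean over the samples, for the 87 genes (circles), for all genes tested of at most 1224 bases (squares) and for longer genes (triangles). AI-10-104 replicates 1 and 3 lie lowest, at -0.08 and -0.06 for the 87 genes, while AI-10-104 replicate 2 lies at 0.01 and LEN+AI-10-104 replicate 3 highest at 0.09.

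With LEN alone, no respiratory chain gene was called higher or lower than in DMSO by limma, where 0.649% of all genes tested were called. At an unadjusted p under 0.05 there were 8 of the 87, all lower, beside 10.7% of all genes, and voom, limma's method for counts, run on the recovered reads, also called 0 and gave 8. The smallest adjusted p was 0.182. The median log2 fold change was -0.04 (all genes -0.00, and -0.03 for those of at most 1224 bases). Below 0 were 69 of the 87 (79.3%), where 51.0% of all genes tested were. Of the 87, 84 had a 95% interval that stayed within 0.32 of 0 in both directions. Complex II showed no common direction, with log2 fold changes of -0.13 for SDHB and 0.02 for SDHA. The values farthest from 0 were those of genes on few reads, -0.66 for ATP5L2 (adjusted p = 0.405 from limma) and -0.30 for ATP5E (0.861), followed by -0.16 for the assembly factor NDUFAF5 (0.345). On the other side stood 0.10 for COX8A (0.691), 0.08 for NDUFA4L2 (0.927) and 0.08 for NDUFC1 (0.746). With 1 sample left out these last 3 values ran from 0.04 to 0.18, -0.06 to 0.16 and 0.03 to 0.10.

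With AI-10-104 alone, 1 of the 87 genes was called lower, where 1.09% of all genes tested were, and none was called higher, where 0.685% were. It was ATP5D, the delta subunit in the central stalk of the ATP synthase (chr19:1241746-1244825, plus strand, GENCODE v44, there ATP5F1D). ATP5D had 117, 107 and 106 RPKM in DMSO replicates 1 to 3, 94.1, 98.9 and 104 RPKM in LEN, 79.5, 97.7 and 78.9 RPKM in AI-10-104, and 98.9, 101 and 97.6 RPKM in LEN+AI-10-104. All 3 AI-10-104 samples lay below all 3 DMSO samples, replicates 1 and 3 far below and replicate 2 within the ranges of LEN and of LEN+AI-10-104. Against DMSO its log2 fold change was -0.37, with a standard error of 0.07 and an adjusted p of 0.0171 from limma, and it was -0.47 without AI-10-104 replicate 2. With every sample corrected for the GC content and length of the genes it was -0.23 (adjusted p = 0.00635 from limma), past the adjusted p but short of the fold threshold, and the call was also lost without DMSO replicate 1, AI-10-104 replicate 1 or AI-10-104 replicate 3. With LEN+AI-10-104, ATP5D had a log2 fold change of -0.14 against DMSO (adjusted p = 0.26 from limma). After the GC and length correction that value was -0.24 (adjusted p = 0.00363 from limma), as low as with AI-10-104 alone, and the difference between LEN+AI-10-104 and AI-10-104 went from 0.22 to -0.00.

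By the adjusted p alone 2 more genes were lower with AI-10-104, 3 of 87 in all, where 2.46% of all genes tested were. NDUFV3, an accessory subunit beside the NADH-oxidizing module, had at least 10.8 RPKM in DMSO and 9.09 to 9.98 RPKM in AI-10-104, without overlap (log2 fold change -0.19, adjusted p = 0.0339 from limma). UQCRHL had 419 to 457 RPKM in DMSO and 372 to 401 RPKM in AI-10-104, also without overlap (-0.18, adjusted p = 0.0283 from limma), and its near-identical UQCRH had -0.15 (0.156). Without AI-10-104 replicate 2 all 3 genes still passed, NDUFV3 at -0.23 and UQCRHL at -0.20. After the GC and length correction the lower genes were ATP5D, NDUFV3, NDUFA4 and SDHA, 4 of 87 where 3.62% of all genes tested passed, UQCRHL no longer passed (adjusted p = 0.0525 from limma), and COX5A was higher, where 2.66% of all genes tested were. The remaining 84 genes did not pass, although 30 of the 87 had an unadjusted p under 0.05, 22 of them lower and 8 higher, where 21.9% of all genes tested had one. NDUFS6, at -0.31 (adjusted p = 0.0894 from limma), and ATP5E, at -0.60 (0.323), had the lowest values beside ATP5D. At the other end were ATP5C1, the gamma subunit, at 0.20 (0.0889), NDUFAF6 at 0.18 (0.137) and NDUFV2 at 0.14 (0.0799). The SDH genes lay between -0.12 for SDHA (adjusted p = 0.0531 from limma) and 0.09 for SDHD (0.328). By complex the median log2 fold change was -0.06 for the 35 complex I subunits, 0.02 for complex II, -0.11 for complex III, -0.09 for complex IV and -0.05 for complex V. Without AI-10-104 replicate 2 these medians were -0.10, 0.01, -0.18, -0.07 and -0.04.

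Without AI-10-104 replicate 2 the same comparison called 6 of the 87 genes lower, where 2.66% of all genes tested were and 6.55% of those of at most 1224 bases. These were ATP5D, ATP5E, COX6A1, NDUFA2, NDUFB1 and NDUFS6. NDUFA2, an accessory subunit of complex I, gives the pattern plainly, with 26.3 to 27.4 RPKM in DMSO and 19.9, 26.9 and 21.5 RPKM in AI-10-104. Replicate 2 lay inside the DMSO range and the other two below it.

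**Figure D3:**
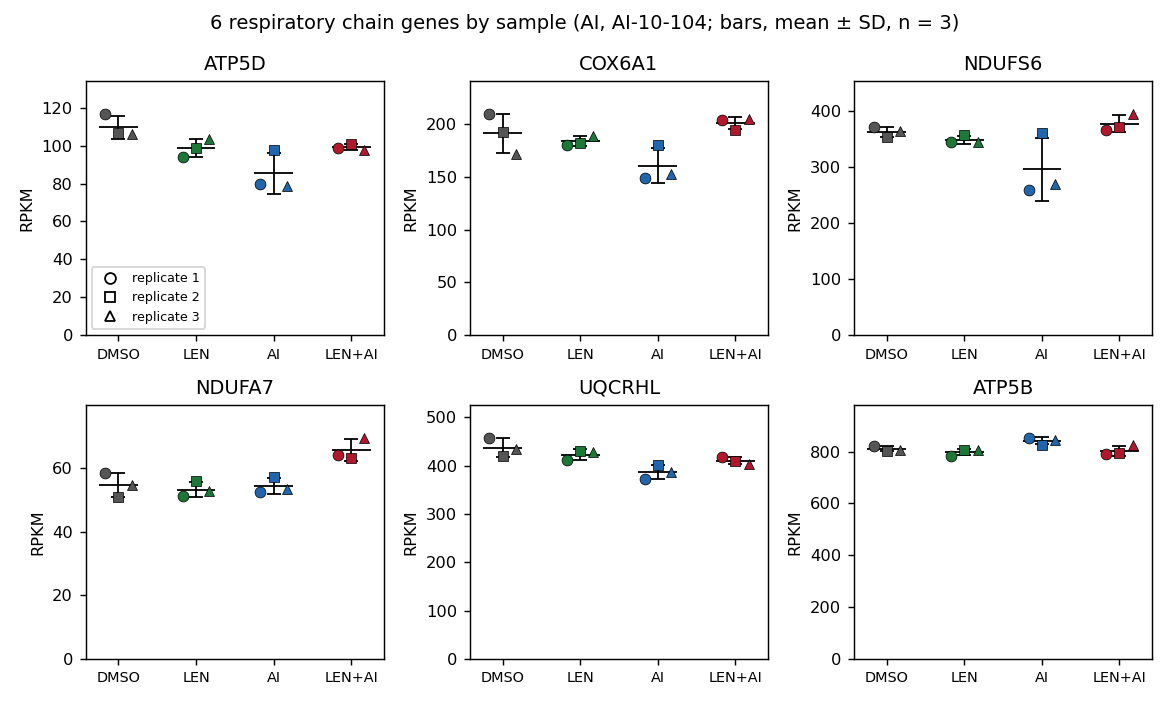
RPKM of 6 genes in each of the 12 samples (circle, square and triangle for replicates 1, 2 and 3), with the mean and SD of each condition, n = 3. AI-10-104 replicate 2 sits above replicates 1 and 3 in ATP5D, COX6A1 and NDUFS6, the 3 LEN+AI-10-104 samples of NDUFA7 (63.3 to 69.5 RPKM) lie above the other 9 samples, and ATP5B stays between 785 and 853 RPKM.

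With both drugs, no gene of the 87 was called against DMSO by limma, where 2.94% of all genes tested were called. At an unadjusted p under 0.05 there were 12 (8 higher, 4 lower), beside 23.7% of all genes, and voom called 0 and gave 13. By the adjusted p alone NDUFA7 was higher and NDUFAF4 lower, 2 of 87, where 8.64% of all genes tested passed. NDUFA7, an accessory subunit of complex I (chr19:8308768-8321375, minus strand, GENCODE v44), had 58.5, 51.1 and 54.8 RPKM in DMSO, 51.1, 55.9 and 52.7 RPKM in LEN, 52.4, 57.2 and 53.5 RPKM in AI-10-104, and 64.1, 63.3 and 69.5 RPKM in LEN+AI-10-104. The 3 samples with both drugs were the highest of all 12, and the 3 other conditions overlapped. Against DMSO its log2 fold change was 0.26 with both drugs (limma adjusted p = 0.0171, standard error 0.06), -0.04 with LEN (0.904) and -0.01 with AI-10-104 (0.949).

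NDUFAF4, an assembly factor of complex I, had 20.1 to 20.6 RPKM in DMSO, 18.2 to 18.5 RPKM in LEN, 18.4 to 20.8 RPKM in AI-10-104 and 17.6 to 18.4 RPKM in LEN+AI-10-104. All samples with LEN, alone or with AI-10-104, lay below those of DMSO. Its log2 fold change was -0.18 with both drugs (limma adjusted p = 0.0244, standard error 0.04) and -0.14 with LEN alone, which did not pass (0.182). After the GC and length correction NDUFA7 passed as higher, NDUFAF4 did not pass (adjusted p = 0.0665 from limma), and ATP5D, ATP5J2 and UQCRHL passed as lower, 4 of 87 in all where 12.3% of all genes tested passed. Over the 87 genes the median was 0.02, as over all genes (0.02), and -0.02 after that correction, and 82 had a 95% interval within 0.32 of 0. The other values farthest from 0 were -0.85 for ATP5L2 (adjusted p = 0.0837 from limma), -0.18 for NDUFA4L2 (0.454), 0.18 for NDUFB2 (0.201) and 0.16 for NDUFB4 (0.0511).

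Adding AI-10-104 to LEN gave no call among the 87 genes by limma, where 1.68% of all genes tested were called. At an unadjusted p under 0.05 there were 14, all higher, beside 20.6% of all genes, and voom called 0 and gave 18. By the adjusted p alone 5 of the 87 were higher, where 2.48% of all genes were, and none was lower. They were 4 accessory subunits of complex I, NDUFA7 (log2 fold change 0.30, standard error 0.06, adjusted p = 0.0126), NDUFB7 (0.24, 0.06, 0.0353), NDUFB6 (0.21, 0.05, 0.042) and NDUFB4 (0.21, 0.04, 0.0223), all by limma, and the complex IV subunit COX5B (0.15, 0.04, 0.0384). NDUFB4, NDUFB6 and NDUFB7 belong to the membrane arm. NDUFB6 had 36.1 to 39.5 RPKM in LEN and 43.5 to 45.2 RPKM in LEN+AI-10-104, and 40.3 to 43.7 RPKM in DMSO, so the LEN samples were the low ones. NDUFB4 had 40.6 to 42.7 RPKM in LEN and 46.6 to 48.8 RPKM in LEN+AI-10-104, with 40.6 to 45.9 RPKM in DMSO, so here the samples with both drugs stood highest.

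The remaining values farthest from 0 in that comparison were 0.35 for ATP5E (adjusted p = 0.6 from limma), -0.26 for NDUFA4L2 (0.308), -0.19 for ATP5L2 (0.74) and -0.10 for ATP5J2 (0.255). The median over the 87 genes was 0.05, over all genes 0.02 and over the short genes 0.07. After the GC and length correction the median of the 87 was 0.00. NDUFA7, NDUFB4 and NDUFB6 still passed the adjusted p then, at 0.22, 0.19 and 0.19, NDUFB7 and COX5B did not, and COX6C passed as higher, 4 of 87 where 2.66% of all genes tested were.

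Adding LEN to AI-10-104 gave the most changes. Called higher with both drugs than with AI-10-104 were 2 of the 87 genes, where 3.16% of all genes tested were and 5.29% of those of at most 1224 bases. None of the 87 was called lower, where 0.471% of all genes tested were. The 2 called higher were COX6A1, a complex IV subunit (chr12:120438090-120440737, plus strand, GENCODE v44), and the complex I subunit NDUFS6 (chr5:1801407-1816048, plus strand). COX6A1 had 209, 192 and 172 RPKM in DMSO, 180.1, 182 and 189 RPKM in LEN, 149, 180.1 and 153 RPKM in AI-10-104, and 203, 194 and 205 RPKM in LEN+AI-10-104. The combination lay above all AI-10-104 samples and inside the DMSO range, so the low samples of this contrast were AI-10-104 replicates 1 and 3. Against AI-10-104 the log2 fold change was 0.33 (limma adjusted p = 0.0182, standard error 0.08), and it was 0.41 without AI-10-104 replicate 2.

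NDUFS6 had 372, 354 and 365 RPKM in DMSO, 345, 357 and 346 RPKM in LEN, 259, 362 and 270.0 RPKM in AI-10-104, and 367, 371 and 395 RPKM in LEN+AI-10-104. AI-10-104 replicate 2 lay with the samples of the other conditions and close to the combination, and replicates 1 and 3 were far below every other sample. The log2 fold change of NDUFS6 was 0.36 (limma adjusted p = 0.0278, standard error 0.10), 0.515 without AI-10-104 replicate 2, and 0.17 after the GC and length correction (adjusted p = 0.111 from limma). COX6A1 kept 0.31 after that correction (adjusted p = 0.0272 from limma), just under the fold threshold. Both calls were lost without AI-10-104 replicate 1 or 3 or LEN+AI-10-104 replicate 1 or 3, and that of NDUFS6 also without LEN+AI-10-104 replicate 2. COX6A1 has a processed copy, COX6A1P2, with 326 of 330 aligned bases in common (98.8%), so its reads may be shared.

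By the adjusted p alone 16 of the 87 genes were higher with both drugs than with AI-10-104, where 9.13% of all genes tested were, and 3 were lower, where 5.84% were. Of the 16, 11 were accessory subunits of complex I, namely NDUFS6, NDUFA11 (log2 fold change 0.29), NDUFB1 (0.28), NDUFA2 (0.27), NDUFA7 (0.27), NDUFA13 (0.24), NDUFC1 (0.22), NDUFB7 (0.20), NDUFB9 (0.20), NDUFB8 (0.19) and NDUFB4 (0.19). The other 5 were the assembly factor NDUFAF3 (0.19), the complex IV subunits COX6A1, COX8A (0.28) and COX5B (0.12), and the ATP synthase subunit ATP5L (0.13). Of the 28 accessory subunits 24 were above 0 and 4 below, with a median of 0.15, where 45.6% of all genes tested were below 0. The 7 core subunits had a median of 0.06, and all genes tested of at most 1224 bases had one of 0.10. Of those short genes 10.9% were higher by the adjusted p. None of the 16 was one of the 7 core subunits of complex I or of the 4 complex II genes. Where 9.13% of all genes tested were higher, sets this small do not set these complexes apart. NDUFA11, a membrane arm subunit, had 37.8, 43.9 and 37.8 RPKM in AI-10-104 and 47.2 to 50.9 RPKM in LEN+AI-10-104, without overlap, and 44.9 to 48.9 RPKM in DMSO. Its AI-10-104 replicate 2 again lay nearest to DMSO.

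Lower with both drugs than with AI-10-104 were NDUFAF5, a complex I assembly factor (log2 fold change -0.21, adjusted p = 0.0471 from limma), UQCRFS1, the Rieske iron-sulfur protein of complex III (-0.14, 0.0351), and COX5A of complex IV (-0.11, 0.0354). COX5A had 241 to 252 RPKM in AI-10-104, 224 to 233 RPKM in LEN+AI-10-104 and 223 to 233 RPKM in DMSO, so in this gene it was the AI-10-104 samples that stood high. Against DMSO its log2 fold change with AI-10-104 was 0.12 (adjusted p = 0.0513 from limma). Without AI-10-104 replicate 2, 18 of these 19 genes still passed the adjusted p, none changed direction, and NDUFAF5 was lost (adjusted p = 0.0716 from limma). With every sample kept, farther from 0 but not past the threshold were ATP5E at 0.66 (0.197), ATP5L2 at -0.59 (0.161) and ATP5C1 at -0.17 (0.0793).

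**Figure D4:**
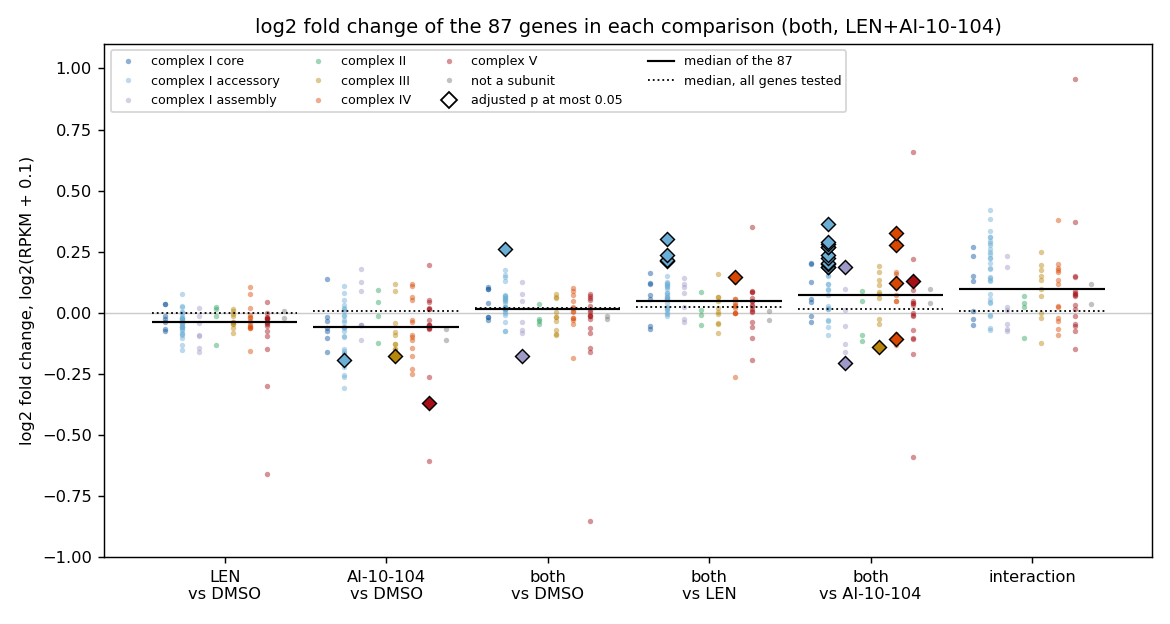
Log2 fold change on the log2(RPKM + 0.1) scale of each of the 87 genes in the 6 comparisons, in columns by role; diamonds mark an adjusted p of at most 0.05 by limma, solid lines the median of the 87 and dotted lines that of all genes tested. With both drugs against AI-10-104 there are 16 diamonds above 0 and 3 below, and in LEN against DMSO and in the interaction there are none.

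GC content moved with this contrast. The 16 genes that were higher had a median GC of 55.7% and the 3 lower ones of 43.4%. The 44 respiratory chain genes at or above the median GC of the 87 (45.9%) had a median log2 fold change of 0.11 between both drugs and AI-10-104, and the 43 below it of -0.01. All genes tested split at the same GC content had medians of 0.09 and -0.06. After the correction for GC content and length no gene of the 87 was called in any comparison, and in this one 8 passed the adjusted p as higher, where 5.06% of all genes did, and 5 as lower, where 6.16% did. The 8 were ATP5L, COX6A1, NDUFA4, NDUFA7, NDUFB1, NDUFB4, NDUFB6 and NDUFB9, and the 5 were ATP5B, ATP5J2, COX5A, COX6C and UQCRFS1. Without the correction but also without AI-10-104 replicate 2, 9 were called higher, where 5.88% of all genes tested were and 11.2% of those of at most 1224 bases. The part of GC content, length and AI-10-104 replicate 2 in the differences was not tested further.

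**Figure D5:**
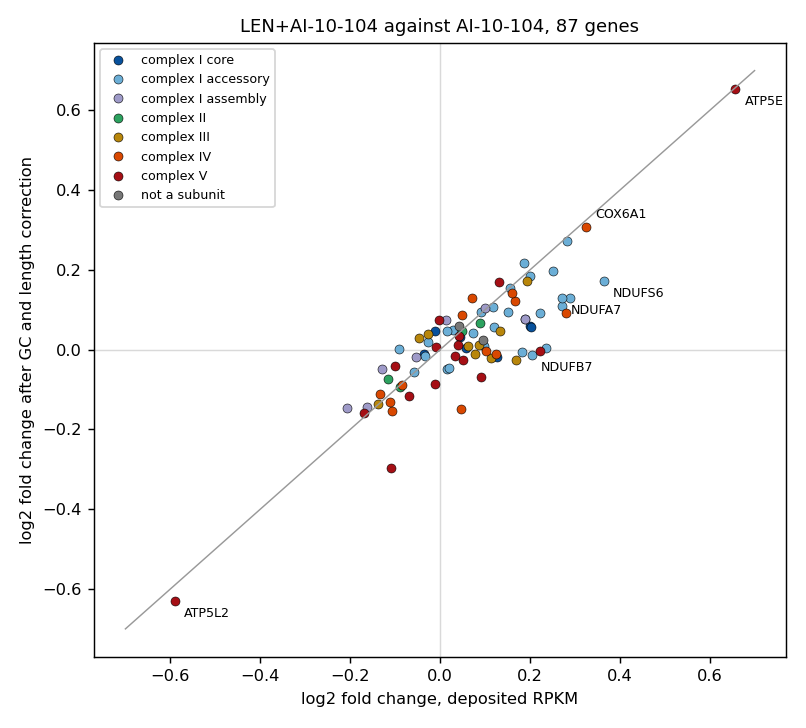
Log2 fold change of LEN+AI-10-104 against AI-10-104 for the 87 genes from the deposited RPKM (x axis) and after the GC and length correction (y axis), coloured by role, with the line of equal values. NDUFS6 goes from 0.36 to 0.17 and NDUFB7 from 0.20 to -0.01, while COX6A1 stays near the line (0.33 and 0.31).

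The interaction asks whether AI-10-104 acts differently in the presence of LEN, as the log2 fold change between both drugs and LEN minus that between AI-10-104 and DMSO. By limma 0 of the 87 genes passed, and 0 (0%) of all genes tested. At an unadjusted p under 0.05 there were 30 of the 87, 29 of them above 0, beside 14.4% of all genes, and voom gave 0 and 34. The median of the 87 genes was 0.10, against 0.01 over all genes and 0.11 over the short genes. The highest values were 0.96 for ATP5E (adjusted p = 0.376 from limma), 0.42 for NDUFS6 (0.281) and 0.38 for NDUFB1 (0.281), and the lowest -0.15 for ATP5C1 (0.437), -0.12 for UQCRFS1 (0.336) and -0.10 for SDHD (0.527). Without AI-10-104 replicate 2, 19 of the 87 passed above 0, where 3.69% of all genes tested did and 9.31% of those of at most 1224 bases, and 1 (ATP5C1) passed below 0, where 1.11% of all did. With every sample kept, none of these 20 passed, so the count rests on leaving out that sample.

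The subunits of the same complexes that are encoded by mitochondrial DNA were far more abundant. The 13 mitochondrial genes took 3.44% to 5.08% of the reads on genes, and their median level was 24.9 to 38.6 times that of the 87 nuclear genes in the same sample. LEN+AI-10-104 replicate 3, with the highest share of both kinds of transcript (5.08% and 1.47%), also had the highest values of ND4, CYTB and ATP6. In LEN against DMSO none of the 13 was called, and their median log2 fold change was -0.00. With AI-10-104, COX1, the catalytic subunit of complex IV, was called higher: it had 3375, 3873 and 3705 RPKM in DMSO and 5144, 4356 and 4528 RPKM in AI-10-104, without overlap (log2 fold change 0.36, limma adjusted p = 0.0378, standard error 0.09). ATP8 was called higher with both drugs than with AI-10-104 (0.56, standard error 0.14, adjusted p = 0.0245 from limma), with 985, 1317 and 876 RPKM in AI-10-104 and 1615, 1268 and 1772 RPKM in LEN+AI-10-104. These groups overlap, since AI-10-104 replicate 2 lay above LEN+AI-10-104 replicate 2, and ATP8 overlaps ATP6 in the mitochondrial genome. The ATP8 call is therefore not shown to be that of a separate mRNA, and the division of reads between ATP8 and ATP6 was not tested. Without AI-10-104 replicate 2 both calls held, at 0.40 for COX1 and 0.73 for ATP8. None of the 13 passed the adjusted p in LEN+AI-10-104 against DMSO or LEN, or in the interaction. Poly(A) selection bears on mitochondrial mRNAs, and its part in these values was not tested.

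Assembly factors outside the name rule numbered 43 tested genes. Of these, 5 were higher by the adjusted p with both drugs than with AI-10-104 and 2 lower. These shares were near those over all genes tested (9.13% and 5.84%). All 7 also passed without AI-10-104 replicate 2, with log2 fold changes larger in size. COX16 (0.70), PET100 (0.45), both for complex IV, and UQCC2 (0.37), for complex III, were called, COX14 (0.21) and UQCC3 (0.29) passed the adjusted p, and LRPPRC (-0.23), which stabilizes mitochondrial mRNAs, and UQCC1 (-0.20) were lower. UQCC3 was lower with AI-10-104 than with DMSO (-0.25, adjusted p = 0.0421 from limma). LRPPRC was also lower with both drugs than with DMSO (-0.16, standard error 0.03, adjusted p = 0.00947 from limma). Of the 3 complex V genes with other names, ATPIF1, the inhibitor of ATP hydrolysis by the complex, was higher with both drugs than with DMSO (0.15, adjusted p = 0.0424) and than with AI-10-104 (0.22, 0.00888), both from limma. USMG5 and C14orf2 did not pass in any comparison.

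Of 12 regulators of respiratory genes none was called in any of the 6 comparisons. PPARGC1A, which encodes the coactivator PGC-1α, was lower by the adjusted p with both drugs, at 2.42 to 2.52 RPKM, than with DMSO at 2.85 to 2.99 RPKM (log2 fold change -0.23, limma adjusted p = 0.0323, standard error 0.06) and than with AI-10-104 at 2.90 to 3.32 RPKM (-0.30, adjusted p = 0.0104 from limma). These groups do not overlap. GABPA (-0.21, adjusted p = 0.0215 from limma) and TFAM (-0.15, 0.0167), a factor that packages mitochondrial DNA and helps start its transcription, were also lower with both drugs than with AI-10-104. The 3 also passed without AI-10-104 replicate 2, where 2 of them had log2 fold changes larger in size. NRF1 itself lay between 9.51 and 11.1 RPKM over the 12 samples and did not pass in any comparison. With both drugs against AI-10-104, 3 of the 12 regulators were thus lower by the adjusted p, where 5.84% of all genes tested were. In the same comparison 0 were higher, where 9.13% of all genes tested were. Whether these regulators bear on the respiratory chain genes was not tested.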

How the data were processed

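Poly(A) RNA of OPM-1 cells was sequenced with a directional kit in 12 samples. STAR aligned the reads to GRCh38, and the authors deposited 1 RPKM value per gene and sample with the gene lengths used. Values times length summed to 1000000 per sample and gave whole reads for 100% of the values (tolerance 0.01), 16352548 to 31386210 per sample. 28 rows carry a date number in place of a gene name.

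The test was limma 3.58.1 on genes averaging 0.5 RPKM or more (R 4.3.3, variance trend, Benjamini-Hochberg), with log2(RPKM + 0.1) as the response and 1 mean per condition. The test was checked on simulated data with independent noise for each gene and sample. That check does not cover shifts of a whole sample with GC content or gene length. Alternatives were other pseudocounts, filters, scalings and fits, voom, a lowess correction for GC content and length (span 0.3) and leaving out each sample. Transcripts of copies were aligned with blastn 2.17.0. Python 3.11.15, pandas 2.3.3 and matplotlib 3.10.9 were used. All 87 genes and 93.6% of genes tested matched GENCODE v44, directly or through an older symbol. The GC content used throughout is that of the longest transcript there, and the length is that of the deposited values. The genes and lists (mitochondrially encoded subunits, assembly factors, other complex V genes, regulators, citric acid cycle, glycolysis, mitochondrial ribosomal proteins, cell type markers) were chosen with earlier results of these data known. Genes named are those called, the 3 highest and lowest log2 fold changes per comparison, the highest and lowest level per complex, alternative forms and the SDH genes. NDUFA2, NDUFA11, NDUFA13, NDUFB8, NDUFB9, NDUFAF3, ATP5J2, ATP5L, COX6C, NDUFB4, NDUFB6, NDUFAF4, COX5A, COX5B, CYC1, UQCRFS1, ATP5A1, ATP5C1, NDUFAF7, NDUFV1, NRF1, USMG5, C14orf2 and list genes past the adjusted p alone were named after their values were seen.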

Additional observations from a re-analysis of the deposited data

How the results depend on the processing

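The median log2 fold changes kept their direction over the alternatives run, except in LEN+AI-10-104 against DMSO, where 0.0156 became -0.0133 with median-ratio rescaling, -0.0163 with the GC and length correction and -0.0108 without LEN+AI-10-104 replicate 3. Calls moved with single samples. With each sample left out in turn, called genes ranged from 0 to 0 (LEN against DMSO), 0 to 6 (AI-10-104 against DMSO), 0 to 1 (LEN+AI-10-104 against DMSO), 0 to 1 (against LEN), 0 to 9 (against AI-10-104) and 0 to 20 (interaction), and medians from -0.05 to -0.02, -0.07 to -0.04, -0.01 to 0.03, 0.02 to 0.06, 0.05 to 0.09 and 0.08 to 0.13. The counts of 6, 9 and 20 came without AI-10-104 replicate 2. LEN+AI-10-104 against DMSO had 1 (ATP5L2) and against LEN 1 (NDUFA7) without LEN replicate 2. Against LEN, NDUFA7 was also called without LEN+AI-10-104 replicate 2. AI-10-104 against DMSO had 2 without DMSO replicate 3 and 0 without DMSO replicate 1. By the adjusted p alone the counts were 3 (AI-10-104 against DMSO) and 2, 5 and 19 (LEN+AI-10-104 against DMSO, LEN and AI-10-104). Without a filter, AI-10-104 against DMSO and LEN+AI-10-104 against AI-10-104 had 0 calls. With the compared conditions alone fitted they had 0 and 1, and median-ratio rescaling and quantile normalization left 1 in the latter. The GC and length correction gave 0 calls, with medians of -0.0163 against DMSO, 0.0003 against LEN, 0.0203 against AI-10-104 and 0.0379 for the interaction. With it COX6C passed the adjusted p as lower in LEN against DMSO (-0.13, adjusted p = 0.0496 from limma). Reversed were COX5B (-0.0115) and NDUFB7 (-0.0136), both against AI-10-104 with that correction, NDUFA4L2 with LEN without DMSO replicate 2 (range over samples left out -0.0646 to 0.1603) and ATP5L2 against LEN without LEN replicate 1 (-0.4785 to 0.0074). Where no sample was left out the cause was not tested. ATP5L2 and ATP5E rest on at most 68 reads per sample, which limits their precision.

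Samples with the same replicate number deviated together weakly (mean r 0.0522, from -0.0272 to 0.155 over 18 pairs), so the numbers were not taken as pairs. The mean over the 36 pairs with different numbers was -0.0261. It is no separate comparison, since centring within each condition nearly fixes it from the first mean. With the replicate number as a block, AI-10-104 against DMSO had 1 call, LEN+AI-10-104 against AI-10-104 had 2 and the other comparisons 0, as without it. With the block and the GC and length correction together, calls were 0, medians -0.0163, 0.0003, 0.0203 and 0.0379, COX5B -0.0115 and NDUFB7 -0.0136.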

Other observations

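Glycolysis, the citric acid cycle and the mitochondrial ribosome held genes on both sides of 0. Of 17 glycolysis genes tested, PDK1, a kinase that restrains entry of pyruvate into mitochondria, was lower by the adjusted p with LEN (log2 fold change -0.27, limma adjusted p = 0.00233, standard error 0.03) and with both drugs (-0.29, adjusted p = 0.000358) against DMSO, and was called lower with both drugs than with AI-10-104 (-0.39, adjusted p = 0.000197). ALDOC, an aldolase, was called higher with AI-10-104 (0.38, adjusted p = 0.00529 from limma). PKM was higher with both drugs than with DMSO (0.13, adjusted p = 0.0335), and against AI-10-104 both drugs gave higher PFKL (0.31, 0.0053) and lower LDHA (-0.15, 0.0106) and ALDOC (-0.20, 0.0484), all by limma. With PDK1 these are 4 of 17 in that comparison, 1 higher and 3 lower, where 9.13% and 5.84% of all genes tested were higher and lower by the adjusted p. Of 14 citric acid cycle genes none was called in the 6 comparisons. IDH2 was higher by the adjusted p with both drugs than with DMSO (0.15, adjusted p = 0.0475 from limma) and AI-10-104 (0.20, 0.0146), and IDH3A was lower than with AI-10-104 (-0.14, 0.0145).

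Of 75 mitochondrial ribosomal protein genes tested, MRPS18C was called lower with AI-10-104 (-0.54, standard error 0.14, adjusted p = 0.0472 from limma) and higher with both drugs than with AI-10-104 (0.61, adjusted p = 0.0162), and these comparisons share the AI-10-104 samples. With AI-10-104 against DMSO, MRPS18C was the only 1 of the 75 called lower, where 1.09% of all genes tested were. MRPL41 was also called higher with both drugs than with AI-10-104 (0.36, adjusted p = 0.0245 from limma). These were 2 of 75 called higher there, where 3.16% of all genes tested were. The same 2 were the only ones higher by the adjusted p, where 9.13% were. There 6 members of the list were lower by the adjusted p, from MRPL19 (-0.22) to MRPL44 (-0.12), where 5.84% of all genes tested were lower. With AI-10-104 against DMSO, MRPL47 was higher (0.18, adjusted p = 0.0407 from limma), and with both drugs MRPS27 was lower (-0.13, adjusted p = 0.0125). Among the plasma cell markers, SLAMF7 was called higher with AI-10-104 (0.69, standard error 0.06, adjusted p = 0.000113 from limma) and lower with both drugs than with AI-10-104 (-0.52, adjusted p = 0.0011). XBP1, a transcription factor of plasma cells, was higher by the adjusted p with AI-10-104 (0.31, adjusted p = 0.00103 from limma) and called lower with both drugs than with AI-10-104 (-0.35, adjusted p = 0.000609). CD38 was higher by the adjusted p with both drugs than with DMSO (0.18, adjusted p = 0.0292 from limma). PECAM1, listed here as an endothelial marker, was called higher than in DMSO with AI-10-104 (0.46, adjusted p = 0.0264 from limma) and with both drugs (0.52, adjusted p = 0.00932), at 0.932 to 0.95 RPKM in DMSO and at most 1.47 RPKM elsewhere. Of the genes named here that passed the adjusted p in AI-10-104 against DMSO or in LEN+AI-10-104 against AI-10-104, MRPL44 no longer did without AI-10-104 replicate 2 (adjusted p = 0.0569 from limma), and none changed direction.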
